A study of Homo sapiens with 4 samples.

Results

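The NRF2 antioxidant and NADPH genes are 37 genes chosen by name: the transcription factor NRF2 (gene NFE2L2), its inhibitor KEAP1, its partner MAFG, and targets that act in glutathione and thioredoxin metabolism, NADPH supply, carbonyl reduction and export. All 37 were found once among the 36359 genes of the count table, and they were chosen as a list of names, drawn up with earlier results of these data known. The libraries came from the cell line ACHN, which derives from a human renal cell carcinoma, transfected with control siRNA in 2 libraries (siNC) and with siRNA against PRR11 in 2 others (siPRR11). Both groups were the same line in the same medium, received the same transfection reagent and differed by the siRNA. The text of the study does not state which of its siPRR11 duplexes each library received, nor whether libraries of a group came from separate cultures, so p-values measure the spread between these libraries, which may be technical. The question was which mRNAs of the NRF2 system differed when PRR11 was silenced.

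NRF2 is held at low levels by KEAP1, which brings it to a CUL3 ubiquitin ligase. Oxidants and electrophiles modify KEAP1, NRF2 protein accumulates, pairs with a small MAF protein and binds antioxidant response elements near its target genes. Its targets make and recycle glutathione, reduce thioredoxin, supply NADPH as the electron source of both systems, and reduce, conjugate or export reactive compounds. In renal tubule cells and in some renal cancers this program is known for its part in handling oxidants and drugs. The counts measured mRNA, not NRF2 protein or its place in the cell. In these bulk libraries, fewer cells of a kind and less RNA per cell cannot be told apart.

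The libraries held between 59003839 and 92612749 counted reads, and every member had reads in each library. Levels are given as TMM-normalized CPM, which are read counts scaled by library total and the factors of edgeR. PRR11, the silenced gene, lay at 41.3 and 40.4 CPM in siNC and at 15.3 and 14.02 CPM in siPRR11, so 35.9% of its level was left (edgeR adjusted p = 3.35e-06). Of 12 markers of renal tubule and renal carcinoma, 11 had enough reads to be tested and CDH6 was near 0. The summed level of the 12 was 745.9 to 844.1 RPKM (reads scaled to gene length and library total) in siNC and 729.7 to 744.4 RPKM in siPRR11. By the test described below, 5 of the 11 (45.5%) differed between the groups, beside 16.7% of all genes. These were 2 higher in siPRR11, KRT18 and CDH1, and 3 lower, among them KRT19 and EPCAM. Markers of other cells were near 0 apart from CD68, COL1A1 and, at 1.07 to 1.27 CPM in the group means, LYZ. Of 5 immune markers, summed at 20.9 to 26.0 RPKM in siNC and 25.9 to 28.4 RPKM in siPRR11, CD68 made up nearly the whole and PTPRC had at most 0.069 CPM. The 5 fibroblast markers summed to 4.35 to 5.02 RPKM in siNC and 7.91 to 10.1 RPKM in siPRR11, with COL1A1 higher in siPRR11, and the 4 endothelial markers to at most 0.0502 RPKM in any library. The part of these marker changes in the results below was not tested.

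The antioxidant response element is shown first because NRF2 binds it. The members were chosen by name and not by sequence. Most were chosen as NRF2 targets, so the share of the core among them is not independent of that choice. Its core was searched as TGACNNNGC on both strands. Promoter sequences from RefSeq (GRCh38.p14, 250 bases before to 50 bases after each start) matched 30 of the 37 members. ABCC1, ABCC3, AKR1B10, GSR, GSS, HMOX1 and SLC7A11 were not matched. The core letters stood in the promoter of 10 of the 30 members (33.3%) and of 4384 of 27303 genes (16.1%). In the 1000 bases before the start, a window added after the first count was known, they stood in 18 of the 30 members (60.0%) and in 9697 of 27298 genes (35.5%). A match is a description of the letters and not evidence of binding. Of the members called in the test below, SRXN1, AKR1C1, AKR1C3, UGDH and GPX3 held no core in either window. Sequences of some members that hold it are printed 5′ to 3′ on the strand of the gene, with the matched core in capitals. Of those printed, NQO1, KEAP1 and ME1 did not pass the test. Where the core lies on the other strand, the capitals read as its reverse complement.
TXNRD1 (chr12:104215670-104215698, plus strand, 99 bases before the start): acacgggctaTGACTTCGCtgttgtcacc
TXNRD1 (chr12:104286920-104286948, plus strand, 102 bases before a second annotated start): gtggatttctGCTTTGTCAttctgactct
GCLM (chr1:93909446-93909474, minus strand, 34 bases before the start): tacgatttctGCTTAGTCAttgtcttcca
SQSTM1 (chr5:179820543-179820571, plus strand, 352 bases before an annotated start): tgaggatattGCTGAGTCAtggccaggcc
NQO1 (chr16:69726997-69727025, minus strand, 455 bases before the start): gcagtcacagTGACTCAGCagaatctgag
KEAP1 (chr19:10502784-10502812, minus strand, 31 bases before an annotated start): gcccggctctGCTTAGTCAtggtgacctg
ME1 (chr6:83431170-83431198, minus strand, 137 bases before the start): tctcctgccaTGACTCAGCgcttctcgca
The cores of SQSTM1, NQO1 and ME1 also hold TGACTCA, the letters that AP-1 factors bind, so these overlap with another motif.

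TXNRD1, SRXN1, SLC7A11, AKR1C3, AKR1C1, SQSTM1, GCLM, HMOX1, ABCC3 and UGDH fell after PRR11 silencing, and GPX3 rose. The quasi-likelihood test of edgeR gave these 11 members an adjusted p below 0.05, run as siPRR11 against siNC over 21630 genes and adjusted by Benjamini-Hochberg. SE is the standard error on the log2 scale. They were 29.7% of the 37 members, and 16.7% of all genes tested passed the same threshold. Of all genes tested, 7.61% were called higher and 9.14% lower, against 1 and 10 of the 37 members. The log2 fold change was below 0 for 27 members and above 0 for 10, and 49.7% of all genes were below 0. The median log2 fold change was -0.12 over the members and 0.00 over all genes. The members' median was -0.21 without siNC library 1, -0.07 without siNC library 2, -0.07 without siPRR11 library 1 and -0.02 with limma on log2(RPKM + 1). The called share depended on the level. At an average log2 CPM of 5 or more, 5 of 23 members (21.7%) were called beside 27.6% of all such genes, and below that level 6 of 14 members (42.9%) beside 13.1%. The siNC and siPRR11 libraries did not overlap for 24 members (64.9%), and for 58.4% of all genes. Without adjustment 14 members had a p under 0.05, beside 30.3% of all genes. With limma on log2(RPKM + 1) the calls of AKR1C1, SRXN1, HMOX1, UGDH, SLC7A11 and SQSTM1 were lost. Those of TXNRD1, GCLM, AKR1C3, ABCC3 and GPX3 were kept, by adjusted p-values from limma of 0.0256 to 0.0494, not far below the threshold. The lost ones had 0.0599 to 0.129.

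**Figure D1:**
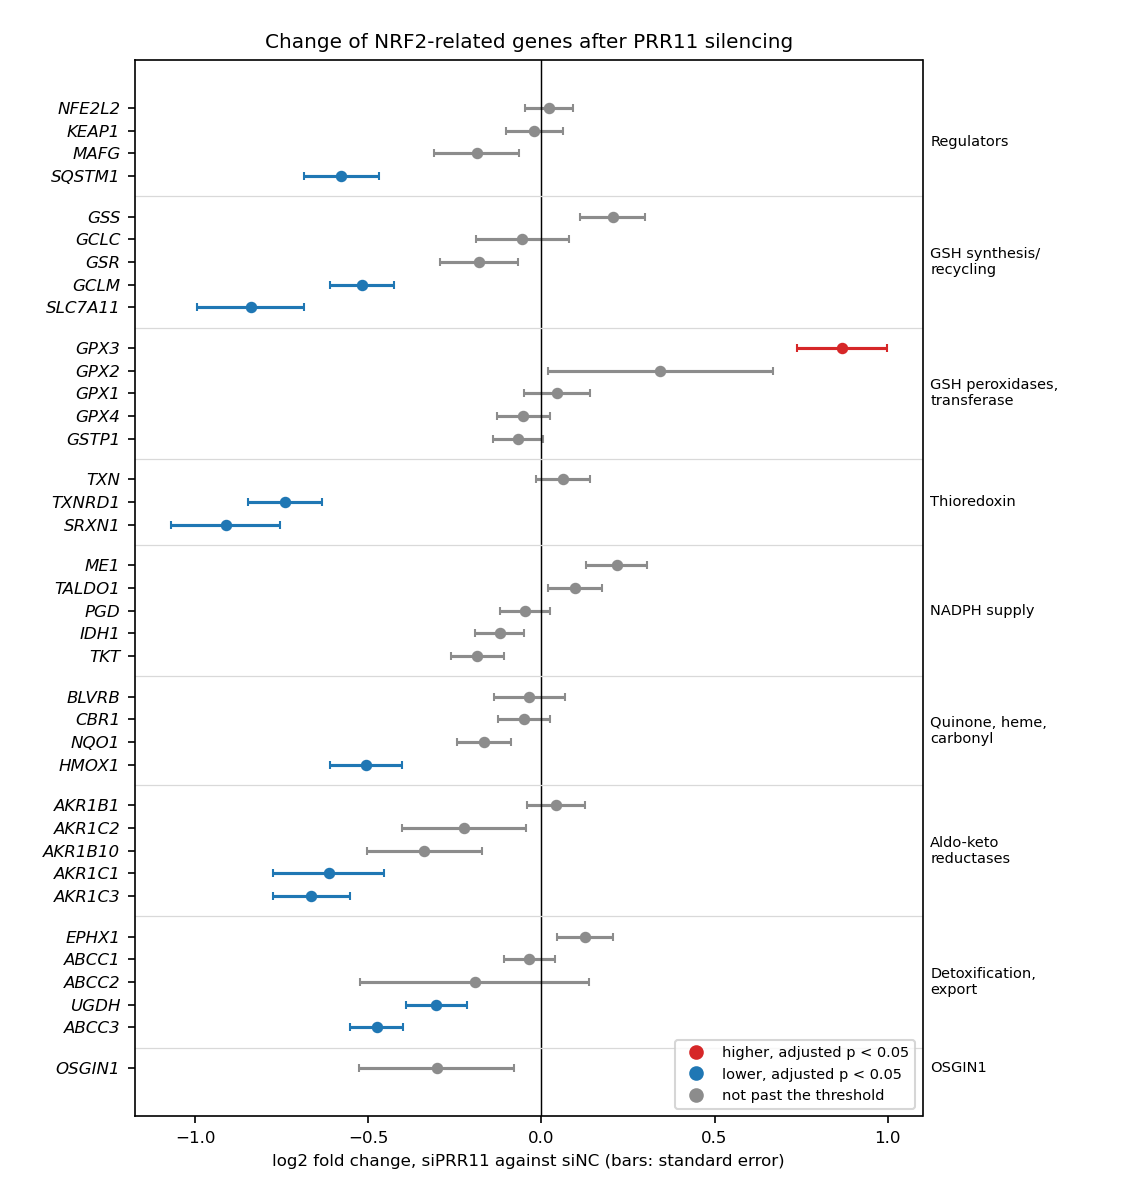
Log2 fold change of each of the 37 genes in siPRR11 against siNC (horizontal axis), ordered by role, with bars of 1 standard error from edgeR. Blue points are the 10 genes called lower, the red point is GPX3, the single gene called higher, and grey points did not pass an adjusted p of 0.05.

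The mRNA of the adaptor p62 (SQSTM1) fell, and those of NRF2 and its inhibitor did not pass the test. NFE2L2, which encodes NRF2, lay at 167.1 and 165.4 CPM in siNC and at 169.6 and 168.0 CPM in siPRR11. On the log2 scale its change was 0.02 with a 95% interval from -0.13 to 0.17 (edgeR adjusted p = 0.872). KEAP1, the inhibitor that binds NRF2, was at 40.3 and 41.5 CPM in siNC and at 41.7 and 38.9 CPM in siPRR11, with overlapping groups. The log2 fold change was -0.02, with an interval from -0.20 to 0.16. These intervals, which cover only the spread between these libraries, leave out changes as large as those of the called members. The smallest of those was 0.30 in size. For NFE2L2, 20.9% of exonic bases are shared with exons of AGPS and of unnamed genes. AGPS had 6802 to 10653 reads per library and the unnamed genes 301 to 2679, beside 9592 to 15989 for NFE2L2. Their log2 fold changes were -0.02 for AGPS and 0.09 and 0.10 for the unnamed genes. Reads in the shared bases cannot be told apart. MAFG, a small MAF partner of NRF2, was at 40.2 and 52.4 CPM in siNC and at 37.2 and 44.04 CPM in siPRR11, and its groups overlapped (log2 fold change -0.19, SE 0.12).

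SQSTM1 encodes p62, which binds KEAP1 and carries it to autophagy, and the gene is itself an NRF2 target. It lies on chromosome 5 of GRCh38 from 179806398 to 179838078. It was at 540.0 and 675.1 CPM in siNC and at 371.9 and 442.3 CPM in siPRR11, and the siPRR11 libraries were the lower ones without overlap. On the log2 scale its change was -0.58 (edgeR adjusted p = 0.00399, SE 0.11). Genes of the other strand, MGAT4B and C5orf45, cover 22.0% of its exonic bases. They had 4707 to 6087 reads per library beside 35057 to 44136 for SQSTM1, and their own log2 fold changes were -0.49 and -0.53. Whether counting used the strand is not given, so reads in the shared bases cannot be told apart.

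For glutathione, the cystine importer and the regulatory subunit of the first enzyme fell, and the remaining steps did not pass the test. SLC7A11 is the transport subunit of the cystine and glutamate exchanger, which brings in the cystine that glutathione synthesis needs. It lies on chromosome 4 from 138164097 to 138242349 and was at 13.5 and 19.7 CPM in siNC and at 8.75 and 9.73 CPM in siPRR11. The groups did not overlap, although the siNC libraries stood far apart. The log2 fold change was -0.84 (edgeR adjusted p = 0.00354, SE 0.16), while 8.97% of its exonic bases also belong to an antisense gene. It ranged from -1.10 to -0.55 with any 1 library left out.

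GCLM and GCLC encode the modifier and the catalytic subunit of glutamate-cysteine ligase, the rate-limiting enzyme of glutathione synthesis. GCLM, which lies on chromosome 1 from 93885205 to 93909456, had 29.9 and 33.7 CPM in siNC and 22.3 and 22.0 CPM in siPRR11. It fell by 0.52 on the log2 scale (edgeR adjusted p = 0.00298, SE 0.093), with the siPRR11 libraries close together and below both siNC libraries. GCLC was at 29.7 and 39.6 CPM in siNC and at 29.9 and 36.8 CPM in siPRR11. Its groups overlapped, and its log2 fold change of -0.05 had a wide interval, from -0.35 to 0.24. The difference between the subunits was not tested. The promoter of GCLM holds the core shown above at 34 bases before the start, and GCLC has its nearest one 870 bases before the start, in the longer window.

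GSS, glutathione synthetase, was at 83.6 and 69.5 CPM in siNC and at 91.1 and 85.5 CPM in siPRR11 (log2 fold change 0.21, edgeR adjusted p = 0.161). GSR, the reductase that returns oxidized glutathione to its reduced form with NADPH, was at 70.2 and 90.4 CPM in siNC and at 65.9 and 75.8 CPM in siPRR11. The groups of GSR overlapped, those of GSS did not, and neither gene passed the threshold.

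Among the glutathione peroxidases GPX3 alone passed the test, in the opposite direction to the other called members. GPX3 is the secreted peroxidase that renal tubule cells are known to release into plasma. It lies on chromosome 5 from 151020438 to 151028993 and was at 4.29 and 4.98 CPM in siNC and at 8.60 and 8.28 CPM in siPRR11, so both siPRR11 libraries lay well above both siNC libraries. On the log2 scale its change was 0.87 (edgeR adjusted p = 0.00101, SE 0.13), a 1.83-fold rise. It stayed between 0.76 and 0.97 with any 1 library left out. GPX4, which reduces lipid hydroperoxides in membranes and guards against ferroptosis, was far more abundant. It was at 280.8 and 256.9 CPM in siNC and at 251.0 and 267.6 CPM in siPRR11, with overlapping groups and an interval of the log2 fold change from -0.22 to 0.11. GPX1, the common peroxidase of the cytosol, was at 23.2 and 20.7 CPM in siNC and at 23.0 and 22.3 CPM in siPRR11. Its value is uncertain, since 78.2% of the 50-base stretches of its transcript also occur in transcripts of other genes. These are an unnamed gene and the pseudogenes GPX1P1 and GPX1P2. GPX2, the gastrointestinal form, had only 26 to 59 reads per library. Its log2 fold change of 0.34 had an interval from -0.37 to 1.05, so a change of that size was not detectable at this depth. GSTP1, which conjugates glutathione to electrophiles, was at 166.1 and 160.6 CPM in siNC and at 152.4 and 159.2 CPM in siPRR11 (log2 fold change -0.07, interval from -0.23 to 0.09).

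In the thioredoxin system the reductase and sulfiredoxin fell and thioredoxin itself did not pass the test. TXNRD1, thioredoxin reductase 1, is the selenoprotein that passes electrons from NADPH to thioredoxin. It lies on chromosome 12 from 104215779 to 104350305 and was at 1189 and 1487 CPM in siNC and at 736.3 and 866.0 CPM in siPRR11. The siPRR11 libraries lay far below those of siNC. The log2 fold change was -0.74 (edgeR adjusted p = 0.000876, SE 0.11), with an interval from -0.98 to -0.51. No exon of another gene covers its exonic bases. Both printed TXNRD1 cores lie close to annotated starts of this gene.

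SRXN1, sulfiredoxin 1, repairs overoxidized peroxiredoxins. It lies on chromosome 20 from 646615 to 653370 and was at 56.6 and 77.1 CPM in siNC and at 29.4 and 41.5 CPM in siPRR11, with no overlap between the groups. The log2 fold change of -0.91 (edgeR adjusted p = 0.00244, SE 0.16) was the largest fall among the members with all 4 libraries. In DESeq2 the log2 fold change was also -0.91, with a wider SE of 0.33 (DESeq2 adjusted p = 0.0327). Without siNC library 2 it was -0.68, smaller than that of AKR1C3 (-0.74) and AKR1C1 (-0.70), and without siPRR11 library 1 it was -0.68, smaller than that of SLC7A11 (-0.76). An unnamed gene on the same strand has exons over 85% of its exonic bases. That gene had 2477 to 4148 reads per library beside 2776 to 4628 for SRXN1 and a log2 fold change of -0.93, so reads of the pair cannot be told apart in the shared bases. TXN, thioredoxin 1, was at 111.8 and 121.2 CPM in siNC and at 118.0 and 125.4 CPM in siPRR11. Its groups overlapped and its log2 fold change of 0.06 had an interval from -0.11 to 0.23.

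**Figure D2:**
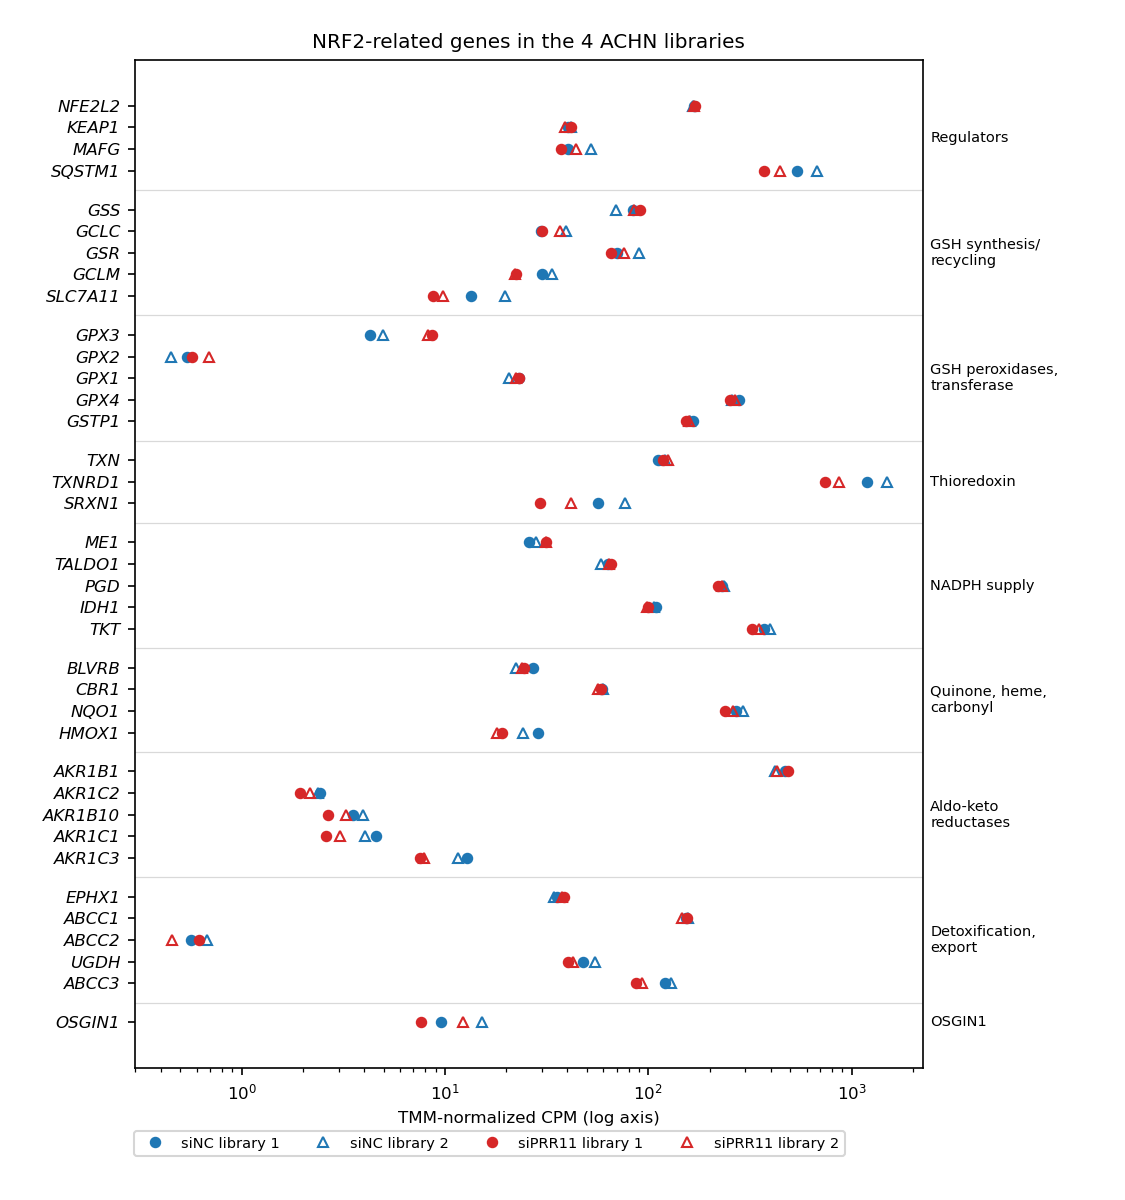
TMM-normalized CPM of each of the 37 genes in the 4 libraries, on a log axis, ordered by role. Blue symbols are siNC, red symbols are siPRR11, filled circles are library 1 and open triangles library 2. For TXNRD1 and SQSTM1 both red symbols lie left of both blue ones, and for GPX3 they lie right of them.

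None of the 5 members that supply NADPH or feed its pathway passed the adjusted threshold in edgeR's test, nor with DESeq2, the edgeR exact test or limma. TKT passed it without siNC library 1 (edgeR adjusted p = 0.033), and TKT and ME1 passed it with the library number as a block. At an unadjusted p of 0.05, 2 of the 5 passed, TKT and ME1, beside 30.3% of all genes. PGD, 6-phosphogluconate dehydrogenase, makes NADPH in the pentose phosphate pathway and was at 231.0 and 235.9 CPM in siNC and at 220.3 and 231.4 CPM in siPRR11. On the log2 scale its change was -0.05, with an interval from -0.20 to 0.11. TKT and TALDO1 encode transketolase and transaldolase of the same pathway. TKT was at 369.0 and 396.3 CPM in siNC and at 323.5 and 349.8 CPM in siPRR11 (log2 fold change -0.18, edgeR adjusted p = 0.122), and TALDO1 had a log2 fold change of 0.10. ME1, the cytosolic malic enzyme, was at 25.9 and 28.2 CPM in siNC and at 31.4 and 31.5 CPM in siPRR11 (log2 fold change 0.22, edgeR adjusted p = 0.116). IDH1, the cytosolic isocitrate dehydrogenase, was at 109.4 and 106.4 CPM in siNC and at 99.4 and 99.1 CPM in siPRR11, a log2 fold change of -0.12. The groups did not overlap for TKT, TALDO1, ME1 and IDH1, nor for 58.4% of all genes, and the sizes were small.

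Among the genes of quinone, heme and carbonyl reduction, HMOX1 fell and the other three did not pass the test. HMOX1, heme oxygenase 1, splits heme into biliverdin, iron and carbon monoxide. It lies on chromosome 22 from 35380361 to 35394214 and was at 28.6 and 24.2 CPM in siNC and at 19.2 and 18.0 CPM in siPRR11. The groups did not overlap, and its log2 fold change was -0.51 (edgeR adjusted p = 0.00614, SE 0.10). NQO1, the quinone reductase that is widely used as a readout of NRF2, was at 269.1 and 291.3 CPM in siNC and at 238.2 and 261.3 CPM in siPRR11. Both siPRR11 values lay below both siNC values by a narrow margin, and the log2 fold change of -0.17 (interval from -0.34 to 0.00) did not pass the threshold (edgeR adjusted p = 0.176). An antisense gene covers 17.7% of the exonic bases of NQO1. CBR1, a carbonyl reductase, and BLVRB, which reduces biliverdin and flavins, had log2 fold changes of -0.05 and -0.04. BLVRB was at 27.1 and 22.5 CPM in siNC and at 24.4 and 24.0 CPM in siPRR11, inside the range of the siNC libraries.

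The aldo-keto reductases reduce aldehydes, ketones and steroids with NADPH, and AKR1C1 and AKR1C3 fell. AKR1C3, which also makes androgens and prostaglandins, lies on chromosome 10 from 5035354 to 5107686. It was at 12.9 and 11.6 CPM in siNC and at 7.56 and 7.90 CPM in siPRR11, with no overlap (log2 fold change -0.66, edgeR adjusted p = 0.00205, SE 0.11). AKR1C1, which lies on chromosome 10 from 4963253 to 4983283, had 4.59 and 4.04 CPM in siNC and 2.59 and 3.06 CPM in siPRR11. It fell by 0.61 on the log2 scale (edgeR adjusted p = 0.022, SE 0.16), a call that was lost without siNC library 1 (edgeR adjusted p = 0.0546) and without siPRR11 library 1 (edgeR adjusted p = 0.173). AKR1C2, between them, was at 2.42 and 2.38 CPM in siNC and at 1.94 and 2.17 CPM in siPRR11 (log2 fold change -0.22, interval from -0.62 to 0.17). These AKR1C genes are close copies. Of the 50-base stretches of the canonical transcript, 22.7% for AKR1C1, 47.3% for AKR1C2 and 18.6% for AKR1C3 also occur in transcripts of other genes, all of the AKR1C family, so reads may be split between them.

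AKR1B10, which reduces retinal, was at 3.55 and 3.95 CPM in siNC and at 2.66 and 3.26 CPM in siPRR11 and did not pass the test (log2 fold change -0.34, edgeR adjusted p = 0.195). AKR1B1, aldose reductase, which turns glucose into sorbitol and is known in the renal medulla, was by far the most abundant of these reductases at 119.7 RPKM in siNC. It was at 469.4 and 421.4 CPM in siNC and at 485.4 and 431.6 CPM in siPRR11, with overlapping groups and a log2 fold change of 0.04.

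In detoxification and export, ABCC3 and UGDH fell. ABCC3 is an exporter of glucuronide and bile acid conjugates, on chromosome 17 from 50634777 to 50692252. It was at 120.8 and 129.5 CPM in siNC and at 87.3 and 92.7 CPM in siPRR11. The log2 fold change was -0.48 (edgeR adjusted p = 0.00163, SE 0.077), it changed little between libraries of a group, and it stayed between -0.53 and -0.43 with any 1 library left out. UGDH makes the UDP-glucuronic acid used for glucuronidation. The gene spans chromosome 4 from 39498755 to 39528311 and was at 48.0 and 54.4 CPM in siNC and at 40.2 and 42.7 CPM in siPRR11. It fell by 0.30 on the log2 scale (edgeR adjusted p = 0.0353, SE 0.088), the smallest called change among the members. This call was lost without siNC library 2 (edgeR adjusted p = 0.114), without siPRR11 library 1 (edgeR adjusted p = 0.262), without siPRR11 library 2 (edgeR adjusted p = 0.0848) and with scaling by total counts (edgeR adjusted p = 0.0669).

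ABCC1, an exporter of glutathione conjugates, was at 152.7 and 157.3 CPM in siNC and at 155.6 and 147.0 CPM in siPRR11, with overlapping groups. ABCC2, the apical exporter of conjugates in liver and proximal tubule, had only 39 to 58 reads per library, and its log2 fold change of -0.19 had an interval from -0.91 to 0.53. EPHX1, microsomal epoxide hydrolase, was at 35.4 and 34.5 CPM in siNC and at 38.6 and 37.8 CPM in siPRR11 (log2 fold change 0.13, edgeR adjusted p = 0.33). OSGIN1, an oxidative stress gene that restrains growth, was at 9.52 and 15.2 CPM in siNC and at 7.64 and 12.3 CPM in siPRR11. Its groups overlapped because library 2 was high in both, and its log2 fold change was -0.30 (SE 0.22). An unnamed gene on the same strand shares 13.9% of the exonic bases of OSGIN1. That gene had 167 to 381 reads per library beside 720 to 1053 for OSGIN1, and a log2 fold change of 0.51 (SE 0.15).

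The spread between libraries of a group was itself uneven across the members. A set of 8 genes, OSGIN1, SRXN1, SLC7A11, GCLC, MAFG, GSR, SQSTM1 and TXNRD1, was over 1.2 times higher in siNC library 2 than in siNC library 1 and over 1.1 times higher in siPRR11 library 2 than in siPRR11 library 1. These genes were picked after their values had been seen. OSGIN1 had the widest ratios, 1.60 in siNC and 1.61 in siPRR11, followed in both groups together by SRXN1, with 1.36 and 1.41. TXNRD1 had 1.25 and 1.18, and SLC7A11 1.46 and 1.11. By contrast NFE2L2 had 0.99 in both groups. Of all 37 members, 16 were higher in library 2 of both groups, 9 lower in library 2 of both, and 12 changed order between the groups. Without siNC library 1, a fit that leaves 1 siNC library, the log2 fold change of OSGIN1 went from -0.30 to -0.61. In the same fit MAFG went from -0.19 to -0.37, GSR from -0.18 to -0.35 and GSS from 0.21 to 0.34. NQO1 went from -0.17 to -0.22 and TKT from -0.18 to -0.24, while AKR1C1 moved toward 0, from -0.61 to -0.52. These genes were picked because their call changed in that fit, in which more genes were called over the whole data as well.

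Levels between genes were compared as deposited RPKM, which take gene length into account. TXNRD1 had the highest mean in siNC at 196.1 RPKM, rank 206 of all 36359 genes, followed by GPX4 (130.9 RPKM), AKR1B1 (119.7 RPKM) and TXN (100.3 RPKM). In siPRR11 TXNRD1 had a mean of 121.4 RPKM and its libraries, at 111.7 and 131.0 RPKM, overlapped with those of GPX4, at 126.5 and 134.5 RPKM. NQO1, GSTP1, SQSTM1 and PGD followed in siNC with means between 77.4 and 84.7 RPKM. SQSTM1 spanned 69.4 to 86.7 RPKM and overlapped with the other three, NQO1 and GSTP1 overlapped with each other, and PGD at 76.6 and 78.2 RPKM lay below both. NFE2L2 stood at 27.3 RPKM and KEAP1 at 10.7 RPKM. The lowest members were AKR1C1, AKR1C2, GPX2 and ABCC2, between 0.484 and 0.0975 RPKM. SLC7A11 lay low as well, at 1.69 RPKM in siNC and 0.974 RPKM in siPRR11. The called members therefore covered the range from the most abundant gene to AKR1C1 near the bottom.

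**Figure D3:**
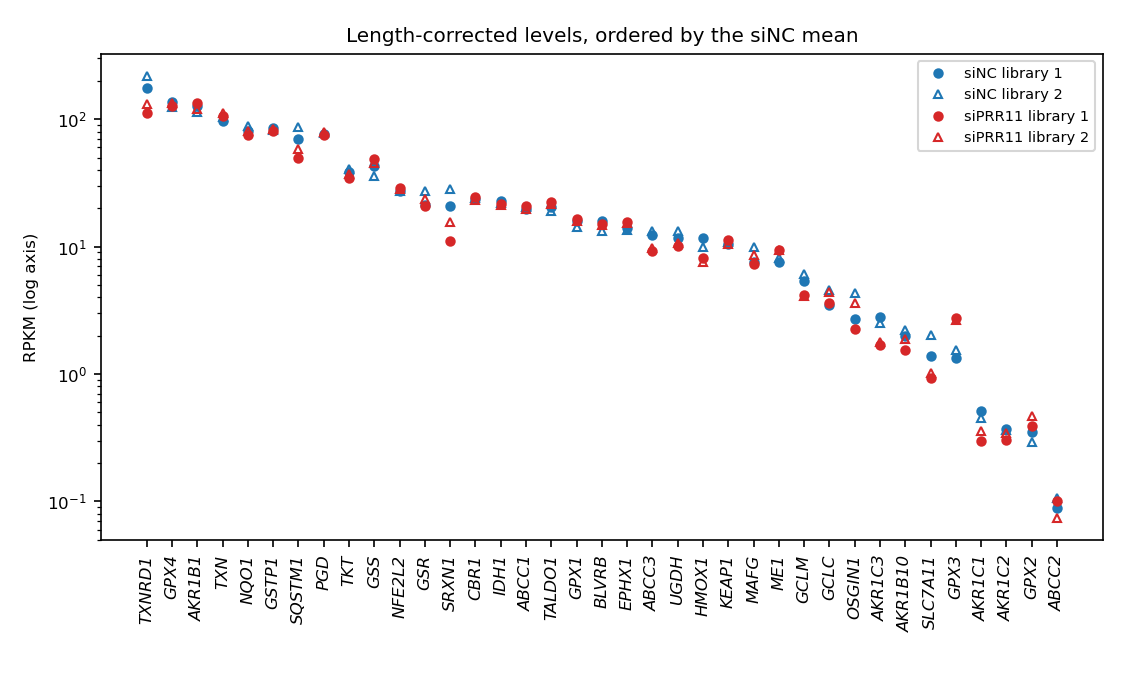
Deposited RPKM of each of the 37 genes in the 4 libraries, on a log axis, ordered by the siNC mean. The range runs from TXNRD1 at 196.1 RPKM to ABCC2 at 0.0975 RPKM, and the symbols of SRXN1 and SLC7A11 separate by group.

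Other genes of the same pathways were counted from lists written by name. Over these lists, 25 of 131 genes tested (19.1%) were called in edgeR's test, 7 higher and 18 lower, beside 16.7% of all genes. The called share was 20% for NRF2 regulators and partners, 20.8% for other NRF2 targets and 36.8% for the thioredoxin system. It was 10.7% for glutathione metabolism, 15.8% for NADPH supply, 30% for the ATF4 list and 0% for the NADPH oxidases. Of 20 regulators and partners of NRF2, 4 were lower in edgeR's test and 0 higher (DESeq2 and the edgeR exact test each called 1 higher, limma 0, and 1 had an unadjusted p under 0.05 as higher). DESeq2 and the exact test also called 4 lower, and limma called 2. These were NFE2L3 and NFE2L1, which are relatives of NRF2 with the same DNA-binding partner, AMER1, a Wnt pathway protein that can bind KEAP1, and the mitochondrial phosphatase PGAM5. NFE2L3 fell from 119.8 ± 3.45 to 73.4 ± 8.78 CPM (SD, n = 2 each) and NFE2L1 from 526.1 ± 30.4 to 402.5 ± 9.66 CPM (SD, n = 2 each). Their log2 fold changes were -0.71 (SE 0.089) and -0.39 (SE 0.074), and that of AMER1 was -0.74 (SE 0.16). The repressor BACH1, which competes with NRF2 for its sites, was at 19.1 ± 3.98 and 17.9 ± 0.531 CPM (SD, n = 2 each). It did not pass the threshold, nor did CUL3 (log2 fold change 0.10), MAFF (-0.25) or MAFK (0.28, edgeR adjusted p = 0.0616).

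Of 24 other NRF2 targets tested, 4 were lower, among them TRIM16L, SLC6A6 and PRDX1, and 1 was higher, SLC48A1. TRIM16L, a gene close in sequence to TRIM16, went from 158.8 ± 8.63 to 79.2 ± 3.90 CPM (SD, n = 2 each) and was 2.01-fold lower. The taurine transporter SLC6A6 fell by 0.58 on the log2 scale, and the heme transporter SLC48A1 rose by 0.34. In the thioredoxin system beyond the members, 3 of 19 genes were higher and 4 lower. SESN1, a sestrin and p53 target, rose by 0.85 and NXN, nucleoredoxin, by 0.45, while the methionine sulfoxide reductase MSRB1 fell by 0.66 and TXNL1 by 0.49 on the log2 scale. Of 28 other genes of glutathione metabolism, GSTM2 rose by 0.63, and SLC3A2, the heavy chain that SLC7A11 pairs with, fell by 0.55 on the log2 scale, as did GSTO1 by 0.38. SLC3A2 was at 165.1 and 196.9 CPM in siNC and at 119.0 and 128.3 CPM in siPRR11, so both chains of the cystine exchanger were lower.

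Of 19 other genes of NADPH supply, 2 were higher and 1 lower, and the log2 fold change was below 0 for 13. IDH2 and ME2, which act in mitochondria, were the higher ones and rose by 0.33 and 0.26 on the log2 scale. DESeq2 and the edgeR exact test each called 2 higher and 2 lower. SLC7A11 is also a known target of the stress factor ATF4, and a part of ATF4 in its fall was not tested. Of 20 genes of the ATF4 list 6 were lower and 0 higher in edgeR's test, beside 9.14% of all genes called lower. In that list 1 gene was higher at an unadjusted p under 0.05, and 0 were called higher by DESeq2, the edgeR exact test and limma. DESeq2 and the exact test also called 6 lower, and limma called 3. The pseudokinase TRIB3 fell from 8.14 ± 2.08 to 2.12 ± 0.799 CPM (SD, n = 2 each), which is -1.94 on the log2 scale (SE 0.24), and the amino acid transporter SLC7A5 fell by 0.63 on the log2 scale. The NADPH oxidases, which make superoxide from NADPH, had 10 genes tested and 0 called by edgeR's quasi-likelihood test or by limma. DESeq2 called 1 of them higher and the edgeR exact test 2, and 3 had an unadjusted p under 0.05 in the first test, all with higher values in siPRR11.

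**Figure D4:**
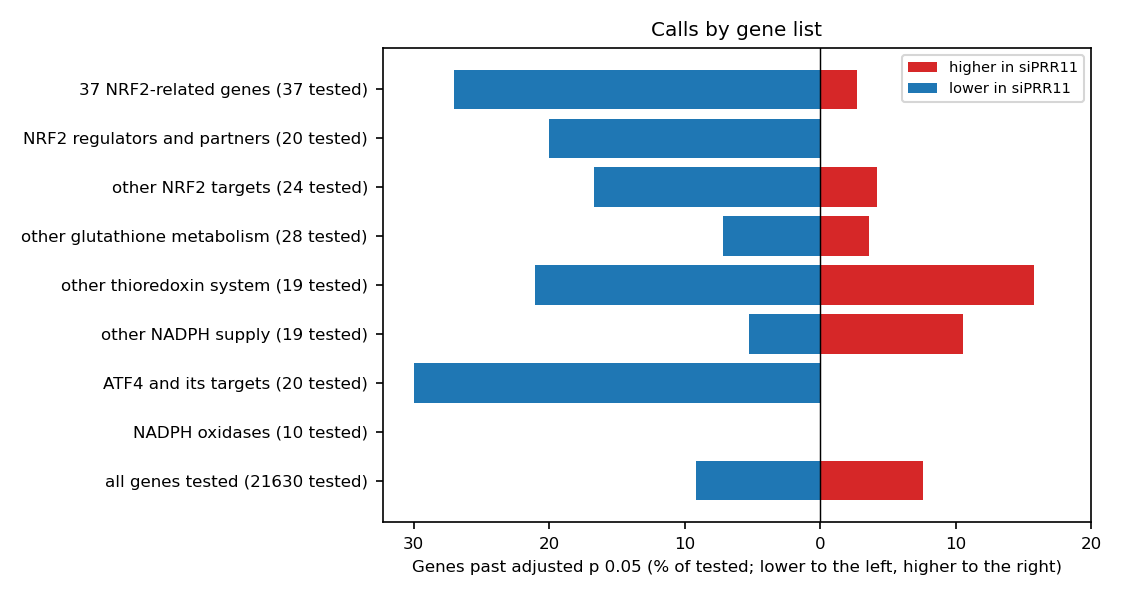
Share of the tested genes of each list with an adjusted p under 0.05, lower in siPRR11 to the left (blue) and higher to the right (red). Of the lists drawn, which leave out the marker lists, the 37 genes and the ATF4 list reach furthest to the left, the NADPH oxidases have no call, and all genes tested have 9.14% lower and 7.61% higher.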

How the data were processed

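RNA-seq was performed by the authors on 4 libraries of ACHN cells, 2 siNC and 2 siPRR11. Per the paper's methods and the submitters' processing notes, reads of stranded libraries were trimmed with Trimmomatic 0.36, aligned to GRCh38 with STAR and counted per gene with featureCounts (Subread 1.5.1). The authors deposited raw read counts per gene without normalization, and RPKM values, which equal count over exonic length and column total within 3.08e-06% over 15916 genes. The annotation release and the strand setting are not given in the sources used here.

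Counts were tested with edgeR 4.0.16 in R 4.3.3 (TMM, filterByExpr, quasi-likelihood test, condition as the only term), which kept 21630 of 36359 genes. The Benjamini-Hochberg adjustment ran over these genes, with 0.05 as the threshold. Intervals of a log2 fold change are 95% intervals from this fit, and standard errors are its size over the square root of F. The edgeR, DESeq2 and limma fits were tested on simulated counts, with independent libraries and a common dispersion for all genes. There limma ran on log2(CPM + 1), so its fits on the RPKM scales were not tested. That simulation does not cover libraries that deviate together. Intervals cover the spread between 2 libraries per group. Alternatives were RLE, upper-quartile and total-count scaling, DESeq2 1.42.0, the edgeR exact test, no filter, at least 10 counts in every library, a replicate block, limma 3.58.1 on log2(RPKM + 1) and log2(RPKM + 0.1), the unadjusted p and each library left out.

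The members, roles, lists and tests were chosen with earlier results of these data known. Genes named are PRR11, all members, BACH1, CUL3, MAFF, MAFK and NFE2L1, and the 2 largest rises and falls past the threshold in each list. Some genes that this rule or the marker lists cover are not reported here. AMER1, PGAM5, PRDX1 and the markers were named beyond this rule, after their values were seen. Of the listed genes, NOX3, ADH7 and NMRAL2P were not analysed here. Exon overlaps come from the deposited coordinates. Shared 50-base stretches come from GENCODE 44 transcripts, whose positions of all 37 members overlap the deposited ones.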

Additional observations from a re-analysis of the deposited data

How the results depend on the processing

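The 11 members called were called again, with the same directions, under RLE and upper-quartile scaling, DESeq2, the edgeR exact test, no filter and the filter of 10 counts. Total-count scaling called 10, without UGDH. On the log2(RPKM + 1) scale limma called 5 members (4 lower and 1 higher), TXNRD1, GCLM, AKR1C3, ABCC3 and GPX3. Their adjusted p-values from limma lay between 0.0256 and 0.0494. The same fit lost AKR1C1, SRXN1, HMOX1, UGDH, SLC7A11 and SQSTM1, all still negative, with adjusted p-values from limma between 0.0599 and 0.129. It called 1775 genes in all and 14 of the pathway lists. With log2(RPKM + 0.1) the counts were 5, 4, 1878 and 14. At an unadjusted p of 0.05, the paper's threshold, edgeR called 6553 genes, 14 members (3 higher) and 50 genes of the lists, beside 3622, 11 (1 higher) and 25 after adjustment.

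The share of called genes that were higher was 45.4% with TMM, 57.9% with total counts and 61.5% with limma on log2(RPKM + 1). Leaving out each library gave 9 to 16 members called (1 to 2 higher, 8 to 14 lower), 18 to 40 genes of the lists and 2172 to 4590 genes in all. In these fits a lone library is assumed to vary like the other group. The count of all genes was lowest without siPRR11 library 1 (2172) and without siPRR11 library 2 (2393), and the count of the lists highest without siNC library 1 (40). PRR11 stayed between -1.54 and -1.41.

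The replicate block called 19 members (3 higher, 16 lower), all 11 among them, 53 genes of the lists and 6988 genes in all. The 8 gained were NQO1, OSGIN1, MAFG, TKT, AKR1B10 and GSR as lower and GSS and ME1 as higher. Libraries with the same number are not stated to share a culture. Their deviations correlated at 0.16 over all genes tested and 0.48 over 14193 genes at or above an average log2 CPM of 1, so libraries of a number deviated together to a degree. With 2 pairs and no label that ties them, the fit without the block was kept. Signs turned only for members that did not pass the threshold. KEAP1 became 0.026, 0.023 and 0.025, ABCC1 0.013, 0.012 and 0.012 and BLVRB 0.012, 0.019 and 0.021 with total counts, log2(RPKM + 1) and log2(RPKM + 0.1), and PGD 0.00015 with total counts. With libraries left out, the range crossed 0 for KEAP1 (-0.070 to 0.027), MAFG (-0.37 to 0.011), GCLC (-0.25 to 0.16), GSR (-0.35 to 0.0096), ABCC1 (-0.074 to 0.0053), ABCC2 (-0.43 to 0.0022), AKR1B1 (-0.044 to 0.12), OSGIN1 (-0.69 to 0.061), GPX1 (-0.039 to 0.13), GPX4 (-0.12 to 0.011) and BLVRB (-0.17 to 0.11). Depth limits GPX2 and ABCC2. The cause of the other changes was not tested.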
